A study of Homo sapiens with 24 samples.

Results

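SP5, RGS5 and REC8 are 3 genes whose RNA was near on/off between the FOXP1 and the GFP culture of the neuroblastoma line IMR-32. They were chosen from the measured values, on the size of that difference, among the probes that the study's list of changed genes gives a symbol, so the difference itself is described here without a test. Each gene had 1 probe with a symbol here (SP5 UKv4_A_23_P135381, RGS5 UKv4_A_23_P46045, REC8 UKv4_A_24_P344087). These 3 probes stand among 43291 on the array, of which 3504 had a gene symbol here. Any further probe of these genes without a symbol could not be recognised.

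The study placed the forkhead transcription factor FOXP1, or green fluorescent protein (GFP) as its control, in 3 established human neuroblastoma lines, which are SK-N-BE(2), IMR-32 and CHP-212, and asked which RNAs changed with FOXP1. RNA was read with 1 dye on 24 Agilent arrays. Every culture was a polyclonal population that carried the RevTet retroviral system, in which doxycycline switches the transgene on through a reverse transactivator. Controls and FOXP1 cultures thus share the vector and the drug. The study gives leakage of the vector's promoter, activity without the drug, as its reason for comparing FOXP1 with GFP cultures. There were 6 groups, a FOXP1 and a GFP culture of each line, each with 1 array at 0, 12, 24 and 72 h.

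The arrays within a group follow 1 culture over time and are not separately made cultures, so a p-value here measures only the spread between these arrays. Each line sat on its own 2 slides, 1 with 0 and 12 h and 1 with 24 and 72 h, so line and slide cannot be told apart. The FOXP1 and GFP arrays of a line shared those slides. Levels are log2 of the processed signal over the 75th percentile of the same array, so 0 is the signal that 75% of probes fall under. That percentile lay between 398 and 2142 signal units. The share of probes well above background, a flag set from each spot and its surroundings, was 72.8% to 82.3% on the other 20 arrays and 53.9% to 60.4% on the 4 arrays of CHP-212 at 0 and 12 h. Few arrays a group limit the precision of every mean.

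The FOXP1 probe itself read 1.05, 1.19, 1.39 and 1.18 at 0, 12, 24 and 72 h in IMR-32 GFP and 2.60, 2.76, 2.66 and 2.38 in IMR-32 FOXP1. It was already higher at 0 h, and the difference was 1.40 (SE 0.15, limma, adjusted p = 0.00011, higher at 4 of 4 time points). In CHP-212 it was higher in FOXP1 than in GFP by 1.98 (SE 0.17, limma, adjusted p = 0.000446, higher at 4 of 4 time points). There too the difference was present at 0 h, at 2.04. In SK-N-BE(2) the arrays labelled FOXP1 had a mean of 2.79 and those labelled GFP 2.99, a difference of -0.20 (SE 0.16, limma, adjusted p = 0.910), so this probe was not higher in the arrays labelled FOXP1. The probe's values do not say how much of that RNA came from the transgene.

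SP5 encodes a zinc finger transcription factor of the SP/KLF family and is a known target of Wnt/beta-catenin signalling, in which beta-catenin joins TCF/LEF factors on DNA. RGS5 encodes a regulator of G protein signalling that speeds GTP hydrolysis by G protein alpha subunits, and it is widely used as a marker of pericytes, the cells that wrap small vessels. REC8 encodes the cohesin subunit that holds sister chromatids together in meiosis.

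The 250 bases before the annotated starts of the 3 genes (RefSeq, GRCh38.p14, 5′ to 3′ on the strand of the gene) are shown because all 3 genes switched between the same 2 cultures, in 2 directions. All 3 symbols matched, RGS5 with 2 starts, of which start 2 lies downstream of start 1. Capitals mark the TCF/LEF core CTTTGA, the CCAAT box and the TATA form TATATA, on either strand.
SP5, chr2:170715087-170715336, plus strand: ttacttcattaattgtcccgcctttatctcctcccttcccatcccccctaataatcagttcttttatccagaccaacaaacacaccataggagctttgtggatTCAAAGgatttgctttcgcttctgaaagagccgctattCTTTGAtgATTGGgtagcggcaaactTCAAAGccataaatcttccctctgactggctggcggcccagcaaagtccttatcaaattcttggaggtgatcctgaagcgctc
RGS5, start 1, chr1:163321736-163321985, minus strand: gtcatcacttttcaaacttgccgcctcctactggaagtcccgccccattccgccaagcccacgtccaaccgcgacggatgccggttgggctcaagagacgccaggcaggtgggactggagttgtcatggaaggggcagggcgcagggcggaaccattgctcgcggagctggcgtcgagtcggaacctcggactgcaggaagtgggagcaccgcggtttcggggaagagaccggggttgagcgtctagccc
RGS5, start 2, chr1:163202917-163203166, minus strand: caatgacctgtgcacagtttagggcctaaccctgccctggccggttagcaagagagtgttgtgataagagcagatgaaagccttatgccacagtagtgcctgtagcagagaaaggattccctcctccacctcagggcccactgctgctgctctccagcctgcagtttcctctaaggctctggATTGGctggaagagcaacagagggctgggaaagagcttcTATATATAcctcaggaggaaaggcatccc
REC8, chr14:24171830-24172079, plus strand: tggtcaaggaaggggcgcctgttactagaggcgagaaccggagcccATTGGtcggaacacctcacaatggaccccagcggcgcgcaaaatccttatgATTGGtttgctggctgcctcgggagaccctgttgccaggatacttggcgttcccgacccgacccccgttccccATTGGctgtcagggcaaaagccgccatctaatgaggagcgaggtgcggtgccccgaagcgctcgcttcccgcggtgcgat

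The SP5 window held 3 TCF/LEF cores and 1 CCAAT box. Of 35116 windows of the same length, 11.2% held a TCF/LEF core and 23 (0.0655%) held at least 3. The REC8 window held 3 CCAAT boxes, as 2.93% of windows do at least, and 32% held 1 or more. Of the RGS5 windows, the first held 2 GC boxes (GGGCGG), a motif in 42.6% of windows. The second held 1 CCAAT box and 2 overlapping copies of TATATA, a motif in 3.73% of windows. No marked motif overlapped another kind of motif. The forkhead core TGTTTAC, in 2.98% of windows, and the TATA box TATAAA, in 3763 of the 35116, were in none of the 4. CpG pairs numbered 6 in the SP5 window, 22 and 1 in those of RGS5 and 21 in that of REC8, against a median of 11 over all windows. A match is a description of these letters and not a site. Which RGS5 start its probe reads is not given in the sources used here.

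SP5 was high in a single culture of the 6. In IMR-32 FOXP1 it read 3.24, 3.64, 3.47 and 3.21 at 0, 12, 24 and 72 h (mean 3.39, SD 0.20, n = 4), a processed signal of 11964 to 19864. In IMR-32 GFP it read -6.03, -5.37, -5.54 and -5.03 (mean -5.49, SD 0.41, n = 4), a signal of 12.7 to 42.8 that was still well above background on 4 of 4 arrays. The 4 high arrays and the 4 low arrays were far from overlapping. In a bulk culture, fewer cells that express a gene and less RNA in each cell cannot be told apart, here and for RGS5 and REC8.

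Outside IMR-32, SP5 was dim in every culture. In CHP-212 GFP it read -5.97, -5.62, -4.79 and -4.93 (mean -5.33, SD 0.56, n = 4), and the 0 and 12 h arrays were not well above background. In CHP-212 FOXP1 it read -6.03, -6.05, -5.93 and -6.31 (mean -6.08, SD 0.16, n = 4), again with 0 and 12 h not well above background. No array of SK-N-BE(2) had it well above background (0 of 8), with measured values of -8.90, -8.46, -8.61 and -7.77 in GFP. The FOXP1 arrays of that line gave -9.15, -9.24, -7.55 and -7.97. These last 8 values are not levels. Set against the lowest signal that passed the background flag on those arrays, IMR-32 FOXP1 was at least 854-fold higher than SK-N-BE(2) GFP and at least 949-fold higher than SK-N-BE(2) FOXP1. The same bound for IMR-32 GFP was at least 1.80-fold and at least 2.00-fold. All these bounds hold for the processed signal only. With normexp, a background correction described below, SP5 in IMR-32 FOXP1 lay 7.18 (log2) above the mean of the CHP-212 and SK-N-BE(2) cultures.

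RGS5 was low in a single culture of the 6, and that culture was IMR-32 GFP. There it read -2.68, -2.27, -2.26 and -1.77 (mean -2.24, SD 0.37, n = 4). In IMR-32 FOXP1 it read 4.36, 4.59, 4.57 and 5.13 (mean 4.66, SD 0.33, n = 4). The other lines held RGS5 in the upper range of the array whichever transgene they carried. CHP-212 GFP read 4.68, 4.39, 3.60 and 4.41 (mean 4.27, SD 0.46, n = 4). CHP-212 FOXP1 read 4.39, 5.66, 3.54 and 5.42 (mean 4.75, SD 0.98, n = 4). Its values at 12 and 72 h lay above those at 0 and 24 h. SK-N-BE(2) GFP read 5.30, 5.24, 5.04 and 3.97 (mean 4.89, SD 0.62, n = 4). SK-N-BE(2) FOXP1 read 5.65, 6.12, 5.25 and 5.90 (mean 5.73, SD 0.37, n = 4). The probe was well above background on 24 of 24 arrays, IMR-32 GFP included, so RGS5 was low there and not absent.

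REC8 was low in a single culture too, and that culture was IMR-32 FOXP1. There it read -3.39, -3.72, -2.36 and -2.23 (mean -2.92, SD 0.74, n = 4). In IMR-32 GFP it read 4.14, 4.03, 4.20 and 4.27 (mean 4.16, SD 0.10, n = 4). The low culture was lower at 0 and 12 h than at 24 and 72 h. CHP-212 GFP held REC8 above the bright IMR-32 culture, at 4.39, 4.29, 5.35 and 5.08 (mean 4.78, SD 0.52, n = 4). CHP-212 FOXP1 overlapped that IMR-32 culture, at 4.08, 3.66, 4.65 and 4.15 (mean 4.14, SD 0.41, n = 4). SK-N-BE(2) was intermediate. Its GFP arrays read 1.34, 1.76, 1.43 and 2.58 (mean 1.78, SD 0.57, n = 4). Its FOXP1 arrays read 1.16, 1.05, 1.21 and 2.01 (mean 1.36, SD 0.44, n = 4). REC8 was well above background on 24 of 24 arrays.

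**Figure D1:**
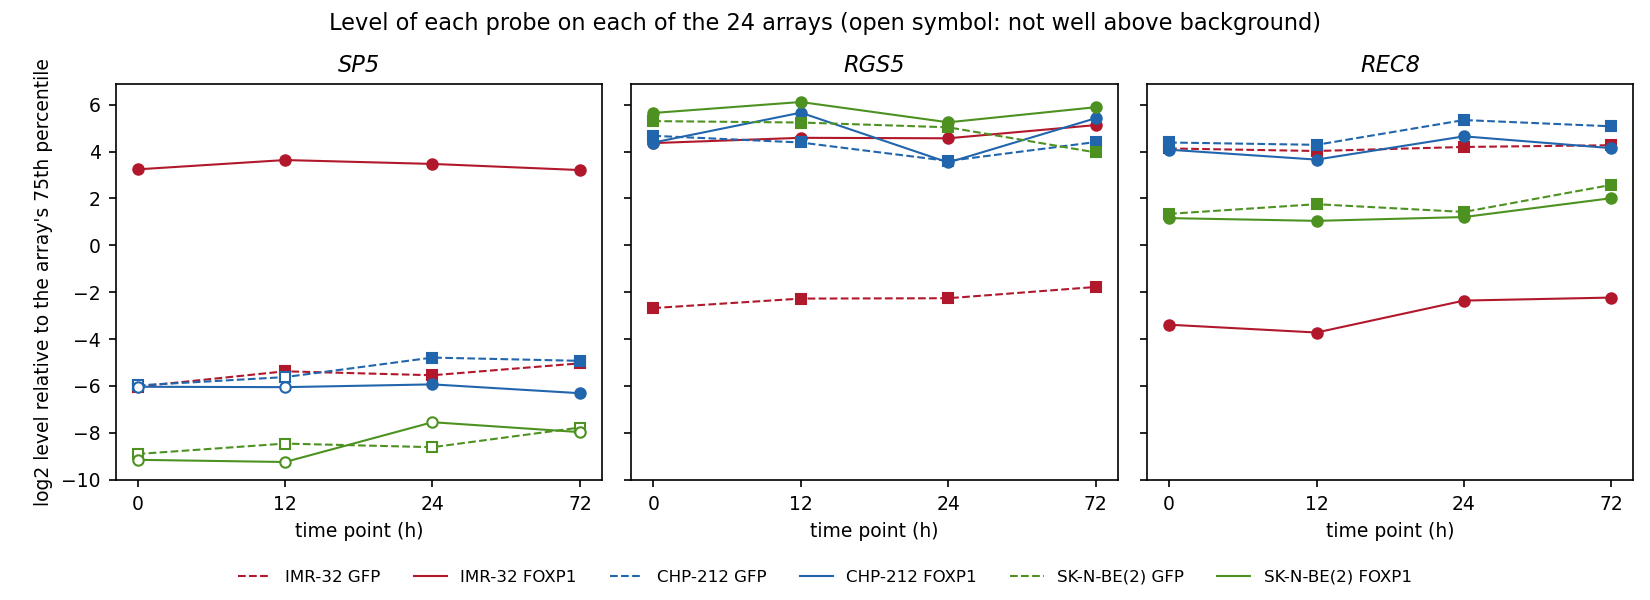
Log2 level of the SP5, RGS5 and REC8 probes relative to the array's 75th percentile, at 0, 12, 24 and 72 h (evenly spaced), with 1 symbol an array, solid lines for FOXP1 and dashed lines for GFP cultures, and open symbols where the probe was not well above background. SP5 is high only in IMR-32 FOXP1 (mean 3.39), RGS5 is low only in IMR-32 GFP (mean -2.24) and REC8 is low only in IMR-32 FOXP1 (mean -2.92).

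In IMR-32 the mean difference was 473-fold for SP5 (8.89 on the log2 scale, higher in FOXP1). It was 120.03-fold for RGS5 (6.91, higher in FOXP1). For REC8 it was 135-fold in the other direction (-7.08). The dimmer culture thus held 0.211% of the signal of the brighter one for SP5, 0.833% for RGS5 and 0.739% for REC8. With normexp, a background correction with an offset, here run on the median spot intensity in place of the processed signal, the folds were 130.1, 87.2 and 84.8 and the shares 0.769%, 1.15% and 1.18%. Over 33806 probes tested in IMR-32, 83 (0.246%) differed at least 100-fold in either direction, and SP5, RGS5 and REC8 took places 10, 66 and 56 by size. Of the tested probes 4122 (12.2%) passed an adjusted p under 0.05 with at least a 2-fold change, 2142 (6.34%) higher and 1980 (5.86%) lower in FOXP1. With normexp, 905 were higher and 521 lower. Nothing is read from the members' places, since this contrast chose them.

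The probes beside them by size show that the 3 were not set apart by a gap. Among probes higher in FOXP1, the one before SP5 differed by 9.40 and those after it by 8.85, 8.81 (CXCL14) and 8.79. RGS5 stood between TM4SF4 at 6.92 and a probe without a symbol at 6.86. Among probes lower in FOXP1, REC8 stood between DCLK3 at -7.11 and a probe without a symbol at -7.05.

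The difference was there at each time point. At 0, 12, 24 and 72 h in turn, SP5 was 618-fold, 517-fold, 518-fold and 304-fold higher in FOXP1. RGS5 was 132-fold, 116-fold, 113-fold and 119.9-fold higher. REC8 was 184-fold, 215-fold, 94.0-fold and 90.5-fold lower. All 3 differences were present at 0 h, the array with no time on the inducer by its label. Within the slide of 0 and 12 h the log2 differences were 9.14 for SP5, 6.95 for RGS5 and -7.63 for REC8. Within that of 24 and 72 h they were 8.63, 6.87 and -6.53.

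**Figure D2:**
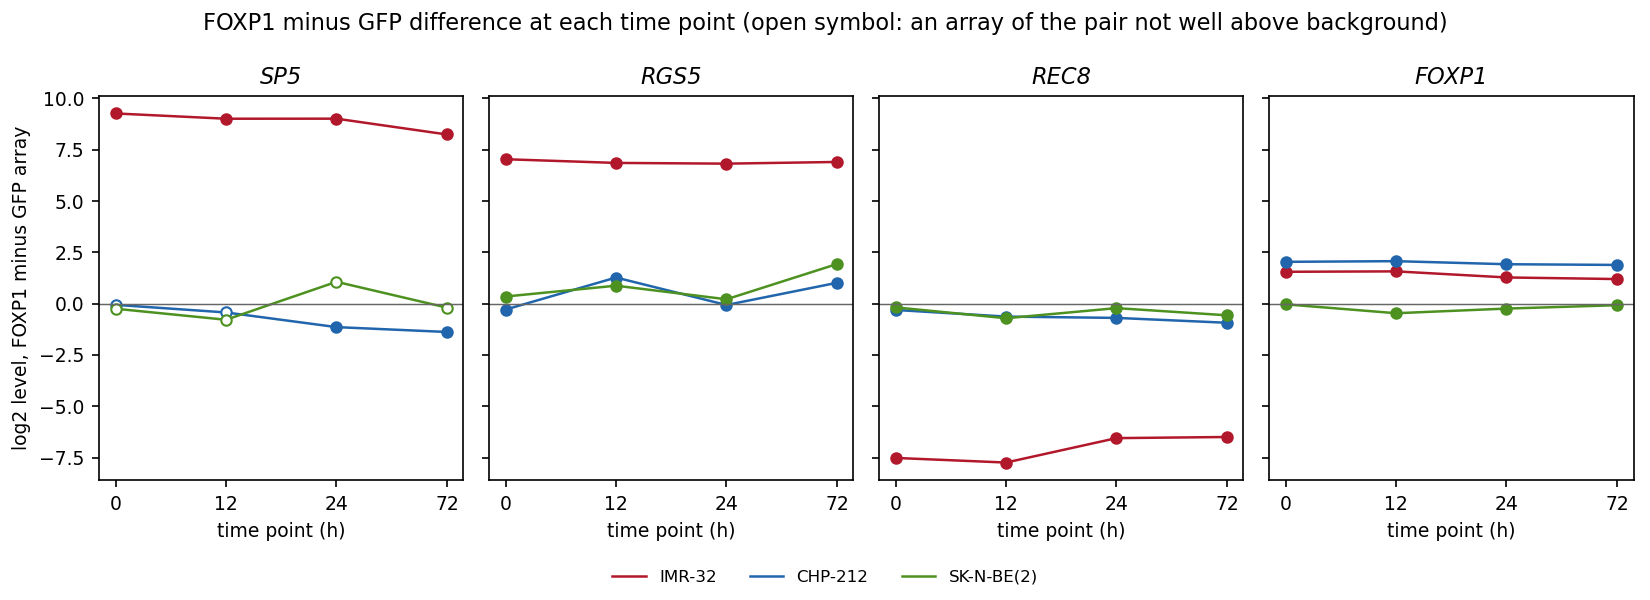
Log2 FOXP1 minus GFP for SP5, RGS5, REC8 and FOXP1 at 0, 12, 24 and 72 h (evenly spaced) in each line, 1 point a time point, open where an array of the pair was not well above background. The IMR-32 points lie between 8.25 and 9.27 for SP5, 6.82 and 7.04 for RGS5, and -7.75 and -6.50 for REC8.

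Change over time within a culture was not called for any of the 3 genes. As a slope over 72 h, SP5 changed by 0.81 in IMR-32 GFP (SE 0.33, limma, adjusted p = 0.381) and by -0.19 in IMR-32 FOXP1 (adjusted p = 0.929). RGS5 changed by 0.80 in GFP (SE 0.26, adjusted p = 0.337) and by 0.74 in FOXP1 (adjusted p = 0.857). REC8 changed by 0.18 in GFP (adjusted p = 0.883) and by 1.30 in FOXP1 (SE 0.46, adjusted p = 0.857). The SP5 slope was -0.058 in GFP with normexp, and in FOXP1 it ran from -0.48 to 0.69 without 1 array. Without 1 array the REC8 slope in FOXP1 ran from 1.02 to 3.09. With limma, 0 of 33806 probes (0%) passed in GFP, in FOXP1 or for the difference of slopes, while 4351, 1701 and 913 had an unadjusted p under 0.05. Time and slide are partly confounded, so slopes and slides cannot be told apart in full.

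Which of the 2 IMR-32 cultures was unusual depended on the gene. For SP5, 12 of the 16 arrays of the other lines were not well above background, so its distance from them is a bound. With those arrays set to the lowest signal that passed the flag, a choice made after seeing the data, SP5 in IMR-32 FOXP1 lay at least 9.01 above the mean of the 4 other cultures. In IMR-32 GFP it lay at least 0.12 above. With normexp these distances were 7.18 and 0.15, so the first bound holds for the processed signal only. Against the same mean of cultures, with all arrays well above background, RGS5 lay at -0.25 in IMR-32 FOXP1 (0.067 with quantile normalization and 0.071 with the authors' value table) and at -7.15 in IMR-32 GFP. REC8 lay at -5.93 in IMR-32 FOXP1 (-5.21 with normexp) and at 1.15 in IMR-32 GFP. So the FOXP1 culture stood apart for SP5 (high) and REC8 (low), and the GFP culture stood apart for RGS5 (low). The 16 arrays of the other lines spanned 3.54 to 6.12 for RGS5 and 1.05 to 5.35 for REC8. For both genes, 4 of 4 arrays of the culture that stood apart were outside that span and 0 of 4 of the other culture. For SP5 the highest of the 16, dim arrays set as above, was -3.87, with 4 of 4 arrays of IMR-32 FOXP1 above it and 0 of 4 of IMR-32 GFP. These are descriptions of chosen genes with no test, and IMR-32 before transduction was not analysed here.

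Both patterns were common among the 4122 called probes of IMR-32. By measured signals, background ones included, the FOXP1 culture was the farther one for 2005 (48.6%). Among the 1887 of them well above background on all 16 other arrays, it was the farther one for 900 (47.7%). Over the 4122 it was the high one, as for SP5, for 1075 (26.1%), and the low one, as for REC8, for 930 (22.6%). The GFP culture was the low one, as for RGS5, for 1067 (25.9%), and the high one for 1050 (25.5%). By the span of the 16 other arrays, only the FOXP1 mean was outside for 1023 probes and only the GFP mean for 1064. For 598 both means were outside and for 1437 both were inside. Among the 83 probes that differed at least 100-fold, the GFP culture was the low one for 20 and the high one for 28, and the FOXP1 culture was the high one for 14 and the low one for 21.

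**Figure D3:**
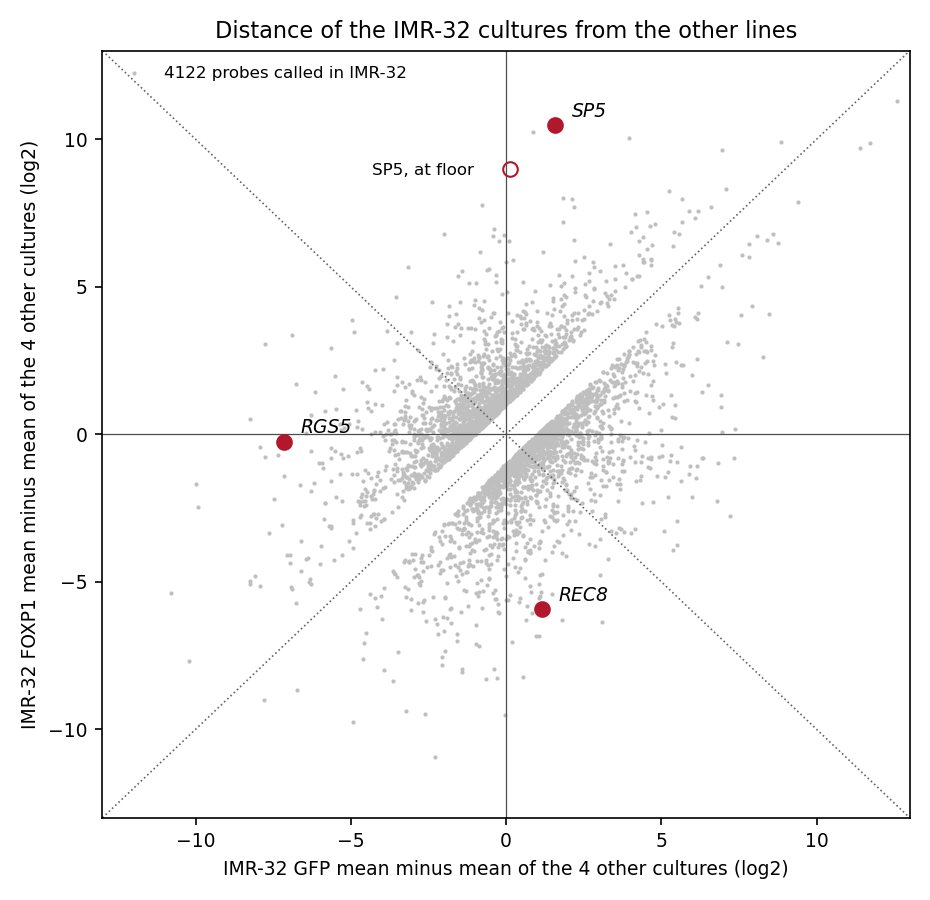
Distance of IMR-32 GFP (x axis) and IMR-32 FOXP1 (y axis) from the mean of the 4 other cultures, in log2, for the 4122 probes called in IMR-32, with SP5, RGS5 and REC8 marked; dotted diagonals separate probes by which IMR-32 culture lies farther from the others. Measured signals are plotted, background ones included; with dim arrays set to their floor SP5 (open circle) lies at least at 0.12 and 9.01, and RGS5 sits at -7.15 and -0.25 and REC8 at 1.15 and -5.93.

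Over all probes the 2 IMR-32 cultures were more alike than either was to another line. On 20864 probes well above background on all 24 arrays, the mean Pearson r across probes was 0.956 between IMR-32 GFP and IMR-32 FOXP1 arrays. It was 0.983 within IMR-32 GFP and 0.986 within IMR-32 FOXP1. With SK-N-BE(2) GFP it was 0.917 for IMR-32 GFP and 0.916 for IMR-32 FOXP1, and with CHP-212 GFP it was 0.874 and 0.877. The FOXP1 and GFP arrays of CHP-212 had a mean r of 0.969 and those of SK-N-BE(2) 0.978. Probes are not independent replicates, so these are descriptions.

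The order of the 6 cultures differed between the genes. For SP5, IMR-32 FOXP1 came first after a wide gap, and the order of IMR-32 GFP and the CHP-212 cultures cannot be given, since the latter rest in part on arrays not well above background. For RGS5, SK-N-BE(2) FOXP1, SK-N-BE(2) GFP, CHP-212 FOXP1, IMR-32 FOXP1 and CHP-212 GFP followed each other with overlapping ranges, and IMR-32 GFP came last after a gap of 6.51. For REC8, CHP-212 GFP lay 0.62 above IMR-32 GFP with no overlap, and IMR-32 GFP and CHP-212 FOXP1 overlapped. SK-N-BE(2) GFP came 2.36 lower and overlapped SK-N-BE(2) FOXP1, and IMR-32 FOXP1 came last after a gap of 4.28.

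In CHP-212, a comparison that did not choose the members, FOXP1 came with no called change in any of them. SP5 differed by -0.75 (SE 0.27, limma, adjusted p = 0.180, lower at 4 of 4 time points). Its difference was -0.24 within the slide of 0 and 12 h, where it was not well above background, and -1.26 within that of 24 and 72 h, and with normexp it was 0.0097. RGS5 differed by 0.48 (SE 0.46, limma, adjusted p = 0.627, higher at 2 of 4 time points). REC8 differed by -0.64 (SE 0.30, limma, adjusted p = 0.295, lower at 4 of 4 time points). Of 32958 probes, 997 (3.03%) were called in this line, 620 to 1073 without 1 array and 605 with normexp.

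SK-N-BE(2) gave no called change either. SP5 was not tested there, since 0 of 8 arrays had it well above background. RGS5 differed by 0.84 between the arrays labelled FOXP1 and GFP (SE 0.32, limma, adjusted p = 0.532, higher at 4 of 4 time points). REC8 differed by -0.42 (SE 0.32, limma, adjusted p = 0.898, lower at 4 of 4 time points). Of 34044 probes, 245 (0.72%) were called, 127 to 213 without 1 array, 40 at 12, 24 and 72 h alone and 477 with time points as blocks. A p that misses the threshold does not show that the values were equal.

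Between CHP-212 and SK-N-BE(2) the FOXP1 effects were compared directly. For SP5 no such comparison is read, since its SK-N-BE(2) signals are not levels. The effects differed by -0.36 for RGS5 (SE 0.54, limma, adjusted p = 0.838) and by -0.22 for REC8 (SE 0.48, adjusted p = 0.896). Without 1 array these ran from -0.66 to 0.048 for RGS5 and from -0.49 to -0.0032 for REC8. Of 35448 probes, 1019 (2.87%) were called, 874 to 1481 without 1 array. The count was much lower with normexp and much higher with time points as blocks, by values given in the last section. The effect on the FOXP1 probe itself differed by 2.18 (SE 0.21, adjusted p = 9.88e-07).

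REC8 also differed between the control cultures of these lines. It was 3.00 higher in CHP-212 GFP than in SK-N-BE(2) GFP (SE 0.34, 7.995-fold, limma, adjusted p = 8.96e-05), with 4 of 4 arrays of CHP-212 above 4 of 4 of SK-N-BE(2). RGS5 differed by -0.62 (SE 0.34, limma, adjusted p = 0.167), and by -0.92 (adjusted p = 0.019) without the 72 h array of SK-N-BE(2) GFP. In this comparison 10121 of 33595 probes (30.1%) were called, and line and slide cannot be told apart in it.

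The genes whose levels most resembled each member over the 24 arrays were taken by Pearson r among 2657 probes with a symbol, with no test, and the arrays share culture and slide. Signals below background entered the r, for SP5 on 12 of 24 arrays, and so did the IMR-32 arrays that chose the members. An r above 0.9 was reached by 13 probes for SP5, 17 for RGS5 and 18 for REC8. For SP5 the genes included C6orf189 (r = 0.940) and ABHD7 (0.931). ABHD7 had a mean of -2.16 in IMR-32 FOXP1 and -3.77 in IMR-32 GFP, a far smaller difference than that of SP5. C6orf189 had a mean of 3.14 in IMR-32 FOXP1, -2.94 in IMR-32 GFP, and passed the background flag on 1, 2, 1 and 0 of 4 arrays in the GFP and FOXP1 cultures of CHP-212 and then of SK-N-BE(2). For RGS5 they were CDYL (0.967), ENPP1 (0.964) and PCDHB11 (0.959). CDYL had a mean of -5.34 in IMR-32 GFP, -0.31 in IMR-32 FOXP1 and 0.46 to 1.03 in the other cultures. For REC8 they were C3orf18 (0.962), LTB4DH (0.955) and PLCL2 (0.948). LTB4DH had a mean of -1.08 in IMR-32 GFP and 1.14 in CHP-212 GFP, while 0 of 4 arrays of IMR-32 FOXP1 had it well above background.

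Beside the members on the chromosomes, 30 neighbouring genes were looked at, 10 around each member, and 3 had a probe with a symbol. GAD1, which makes the transmitter GABA and lies 3 places after SP5, had a mean of -5.33 in IMR-32 GFP and -2.82 in IMR-32 FOXP1. It was higher by 2.52 (SE 0.26, limma, adjusted p = 8.09e-05), and by 1.47 (adjusted p = 0.0662) with normexp. RGS4, which also acts on G protein alpha subunits and lies 2 places before RGS5, went from -0.48 to 2.39, a difference of 2.87 (SE 0.28, limma, adjusted p = 4.88e-05). RGS4 differed by 0.53 in CHP-212 (adjusted p = 0.217) and by -0.12 for SK-N-BE(2) (adjusted p = 0.987). The last of the 3, C1orf110 near RGS5, was too dim to test, and none of the 10 neighbours of REC8 had a probe with a symbol.

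Other genes of the members' pathways are described by counts over lists. Symbols were at hand only for probes that the study listed as changed in a line, so these counts are not independent evidence of a direction. Of the probes with a symbol, 820 of 2510 (32.7%) were called higher and 848 (33.8%) lower in IMR-32, while CHP-212 had 525 called of 2322 (22.6%) and SK-N-BE(2) 113 of 2421 (4.67%). The median log2 difference over all tested probes was -0.01 for IMR-32, 0.02 for CHP-212 and -0.01 for SK-N-BE(2). Markers of other cell types are given beside them.

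Genes of the Wnt/beta-catenin pathway besides SP5 were mostly lower in IMR-32 FOXP1, 15 of 24 tested against 3 higher, with a median of -1.42, also with the genes given below as bounds set to their bound. With normexp, 7 were lower and 2 higher, with a median of -0.96. By role, 4 of 5 secreted inhibitors, 4 of 5 cytoplasmic components and feedback inhibitors and 2 of 2 tested target genes were lower. Of the 5 ligands 2 were lower and 1 higher, and of the 4 receptors 2 and 1. Named here after their values were seen, TLE1, a co-repressor that binds TCF/LEF factors, was lower by limma with a difference of -1.13 (adjusted p = 0.00068). TCF7L2 differed by 0.70 (adjusted p = 0.544). In CHP-212, 7 of 25 were higher and 2 lower, with a median of 0.25. In SK-N-BE(2), limma called 0 of 21, with a median of 0.40.

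The genes at the ends of the Wnt list show both directions. TCF7L1, a DNA-binding partner of beta-catenin, was higher by 4.40 (SE 0.42, limma, adjusted p = 4.34e-05) with 2 of 4 GFP arrays well above background, so the size is not exact, and the receptor gene FZD7 by 2.24 (adjusted p = 0.000272). The ligand WNT4 was at least 2.03-fold higher, not well above background in IMR-32 GFP, and not called with normexp. DKK1, a secreted inhibitor, differed by -6.17 (SE 0.34, adjusted p = 9.42e-07), with 1 of 4 FOXP1 arrays well above background, and not called with normexp (-2.57). In CHP-212, DKK1 was higher by 3.40 (SE 0.34, adjusted p = 0.000863). The R-spondin gene RSPO2 and the receptor gene FZD1 were at least 24.6-fold and at least 20.8-fold lower in IMR-32 FOXP1, where neither was well above background, and neither was called with normexp. AXIN2, a feedback inhibitor often used as a readout of the pathway and named here after its values were seen, differed by -1.85 (SE 0.14, adjusted p = 9.38e-06).

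The SP/KLF family gave 2 higher and 2 lower of 4 tested KLF genes in IMR-32, with a median of 0.59. KLF2 differed by 3.02 (adjusted p = 0.000658, 2 of 4 GFP arrays well above background) and KLF11 by 2.71 (adjusted p = 4.76e-06). KLF4 differed by -3.31 (adjusted p = 4.38e-06) and KLF15 by -1.54 (adjusted p = 0.00525). With normexp limma called 0 of these 4. KLF8 and KLF17 were too dim to test, and SP5 was the only SP factor with a symbol here. In each of the other lines limma called 0 of 4.

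RGS proteins and G protein alpha subunits besides RGS5 also went both ways in IMR-32, 4 higher and 4 lower of 9 tested, with a median of -0.23. Higher beside RGS4 were RGS7 by 1.38 (adjusted p = 0.00144) and the alpha subunit gene GNAQ by 1.21 (adjusted p = 0.00104). RGS16 differed by -4.39 (adjusted p = 9.65e-06), RGS11 by -3.21 (adjusted p = 0.0002) and GNAI2 by -1.14 (adjusted p = 0.00179). With normexp 2 were higher and 2 lower, and RGS16, GNAI2 and GNAQ were not called. In CHP-212, 1 of 7 was higher, with a median of 0.31. In SK-N-BE(2), limma called 0 of 10, with a median of 0.32.

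Genes of meiotic cohesin and the chromosome axis besides REC8 were tested 4 times in IMR-32, and 3 were higher, with a median of 1.92. STAG3, another meiotic cohesin subunit, had a mean of -2.95 in GFP and -0.91 in FOXP1, a difference of 2.03 (SE 0.18, limma, adjusted p = 2.88e-05). SYCP2 of the synaptonemal complex differed by 1.81 (adjusted p = 0.00349) and was not called with normexp. The recombinase gene DMC1 was called higher, but with 1 of 4 GFP and 3 of 4 FOXP1 arrays well above background its difference rests on background signals, and the call was lost with normexp. TEX15 differed by -0.10 (adjusted p = 0.813), and by 0.19 with normexp. STAG3 differed by -0.68 in CHP-212 (adjusted p = 0.068) and by 0.26 for SK-N-BE(2) (adjusted p = 0.912). Limma called 0 of 3 and 0 of 2 genes of the list in those lines, with medians of -0.68 and 0.36. Of 25 symbols of general cohesin, 0 had a probe with a symbol here.

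**Figure D4:**
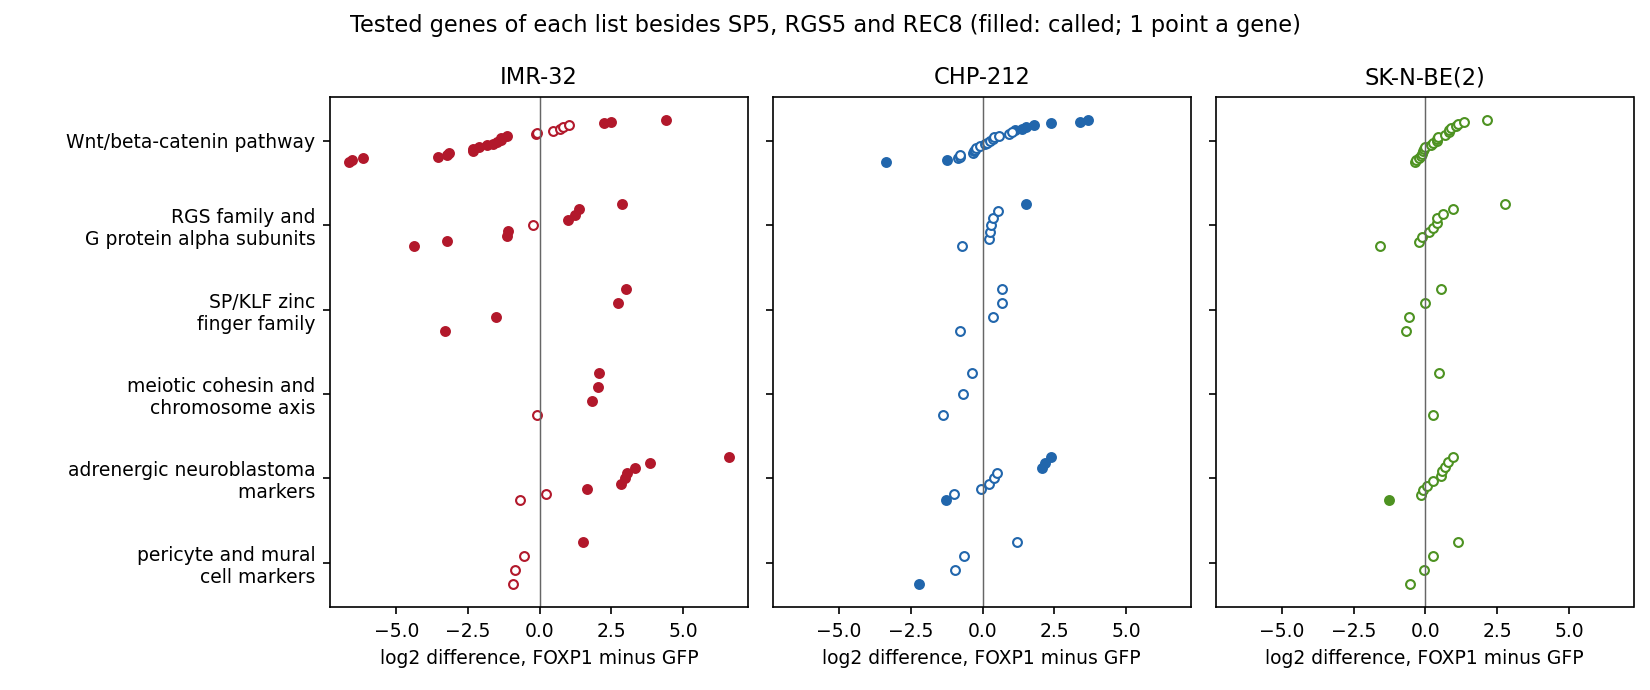
Log2 FOXP1 minus GFP in each line for the tested genes of 6 lists besides the members, 1 point a gene, filled where the adjusted p was under 0.05 and the change at least 2-fold. In IMR-32, 15 of 24 Wnt genes lie to the left as called (7 with normexp), and the adrenergic markers spread from -0.70 to 6.59.

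Because RGS5 marks pericytes, other pericyte and mural cell markers were read. Of 16 symbols 6 had a probe, RGS5 included, and of the 4 others tested in IMR-32, 1 was called, with a median of -0.71 (0.21 with normexp). KCNJ8 differed by 1.52 (SE 0.17, adjusted p = 0.000149), while CNN1 differed by -0.56, CSPG4 by -0.87 and ANPEP by -0.93, with CSPG4 and ANPEP of the other sign with normexp. The mean level of the 5 markers besides RGS5 was -3.60 in IMR-32 GFP and -3.94 in IMR-32 FOXP1, where 1 of the 5 was well above background on no array. In CHP-212 KCNJ8 differed by -2.22 (adjusted p = 0.00122, 2 of 4 FOXP1 arrays well above background), 1 of 4 tested, and limma called 0 of 4 for SK-N-BE(2). The part of pericyte-like cells in the RGS5 values was not tested.

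Markers of the adrenergic state of neuroblastoma, the catecholamine-making type, were mostly higher in IMR-32 FOXP1. SP5 and RGS5 were higher there too, while REC8 was lower. Of 9 tested, 7 were higher in FOXP1 and 0 lower by limma, with a median of 2.97. Their mean level over 10 probes was -0.89 in IMR-32 GFP, where 1 of them was well above background on no array, and 1.61 in IMR-32 FOXP1. CHP-212, again with 1 such probe in each culture, had -2.44 and -1.87, and SK-N-BE(2) had 2.14 and 2.37. SLC18A1, a vesicle monoamine transporter, differed by 6.59 (SE 0.50, adjusted p = 8.82e-06), with 2 of 4 GFP arrays well above background. DBH and TH, enzymes of catecholamine synthesis, differed by 3.85 (adjusted p = 1.13e-05) and 3.33 (adjusted p = 2.33e-05). Toward the other end STMN2 differed by 1.66 and ELAVL4 by -0.70. CHP-212 had 3 of 9 higher and 1 lower. For SK-N-BE(2), limma called 0 of 10 higher and 1 lower.

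Mesenchymal markers had 2 tested genes in IMR-32, 1 higher (a call lost with normexp), and in CHP-212 1 of 2 was lower. The mean of the 3 probes, of which 1 was well above background on no array of these groups, was -6.16 in IMR-32 GFP and -5.77 in IMR-32 FOXP1. It was -1.05 and -0.91 in CHP-212. Of the blood and endothelial markers, limma called 0 of 1 tested in IMR-32, and PTPRC passed the background flag on no array. Whether a change in the make-up of the cultures had a part in the SP5, RGS5 and REC8 values was not tested.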

How the data were processed

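Gene expression was measured in 24 one-colour Agilent arrays. The deposited files hold, per the file headers, the processed signal intensity, the median spot intensity and spot flags from Feature Extraction 10.7.3.1, and a value table made by the authors, whose 44708 rows have columns with the same sorted values within 0.0115% for nearly every row and keep the rank order of the processed signal (Spearman 1), so it was read as quantile-normalized intensity. Groups came from the sample labels. In Python 3.11.15 (numpy 2.4.6, pandas 2.3.3, matplotlib 3.10.9), processed signals of 43291 probes were divided by the 75th percentile of their array and taken to log2, and 311 outlier spots were left out.

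Tests took probes flagged well above background on 4 or more of the 8 arrays of a comparison. Differences were fitted with limma 3.58.1 in R 4.3.3, unpaired as in the study's methods, and p-values were adjusted by Benjamini-Hochberg over all probes tested. A called probe changed at least 2-fold with an adjusted p under 0.05, and slopes were judged by the adjusted p alone. Time points were compared as possible pairs: the deviations of same-time FOXP1 and GFP arrays from their group means correlated across probes with r of 0.375 to 0.601 in IMR-32, 0.0535 to 0.549 in CHP-212 and 0.37 to 0.67 in SK-N-BE(2), and blocking by time point was run as an alternative. Fits were tested on simulated data.

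Where no array of the dimmer group was well above background, the fold is a lower bound against the mean of the lowest signals that passed the flag on those arrays. Named list genes are up to 3 with the largest and 3 with the smallest IMR-32 difference of each list, the genes most like each member are the 3 with the highest Pearson r, and exceptions are said to be so. The values of some genes that this rule names are not reported here. Symbols came only from the parts of the study's list of changed genes that were read, whose fold changes and p-values were not used. Neighbours and promoters came from RefSeq GRCh38.p14. The alternatives were normexp with an offset of 50 on the median spot intensity, quantile normalization, the authors' value table, other background filters, time point, slide and line blocks, subsets of time points, the test of the study's methods, the GFP cultures alone as reference, and leaving out each array. Setting arrays below background to their floor and keeping only probes well above background in the other lines were added after seeing the data. The members and lists were chosen with earlier results of these data known.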

Additional observations from a re-analysis of the deposited data

Results flagged for a closer look

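In SK-N-BE(2) FOXP1, the REC8 level at 72 h, 2.01, lay far above the other 3 arrays of its group. The GFP array of that line and time point, on the same slide, was also the highest of its group, at 2.58 against 1.34 to 1.76. For the FOXP1 array, the gap to the nearest array of its group, as a share of the range of the group, was above the critical value of Dixon's test, and 1 of the 24 groups of 4 values looked at passed it. That test passes about 5% of groups by chance.

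The SP5 difference between FOXP1 and GFP had opposite directions in IMR-32 (8.89) and CHP-212 (-0.75) at all 4 time points. The difference between the lines was not tested, since the IMR-32 comparison chose SP5, and in CHP-212 the arrays of 0 and 12 h were not well above background. With normexp on the median spot intensity, the CHP-212 difference was 0.0097.

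The FOXP1 probe changed more with FOXP1 in CHP-212 than in SK-N-BE(2), by 2.18 on the log2 scale (limma, adjusted p = 9.88e-07, higher at 4 of 4 time points in CHP-212 and at 0 of 4 for SK-N-BE(2)).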

How the results depend on the processing

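The direction of the SP5, RGS5 and REC8 differences in IMR-32 was kept under every alternative run, and without any 1 array they ran from 8.71 to 9.04, 6.75 to 7.06 and -7.31 to -6.81. The number of probes called in IMR-32 ran from 3937 to 4246 without 1 array. Over all results and settings, 439 recomputed values of main results and 335 of single genes kept their direction and side of the threshold or, for values with no test, changed by less than the replicate spread and, for counts, by at most 1.5-fold. Of the main results' values 32 moved by more than that, 8 changed direction and 3 came past the threshold, and of the single genes' 18 changed direction and 24 were no longer past it.

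Normexp was run on the median spot intensity, so the input and the background correction changed together, and which of them moved the values was not tested. It moved the median of all tested probes to 0.221 in IMR-32 and 0.143 in CHP-212, and changed the probes called to 1426, 605 (457 higher and 148 lower, against 639 and 358) and, for the difference of effects, 272. The IMR-32 differences became 7.02 for SP5, 6.45 for RGS5 and -6.41 for REC8, and SP5 in CHP-212 became 0.0097. SP5 lay 7.18 (FOXP1) and 0.15 (GFP) from the other cultures, and RGS5 in GFP -6.76. The SP5 slope in IMR-32 GFP became -0.058 and the RGS5 difference of slopes 0.23. WNT11 became 0.33, FZD8 0.087, TEX15 0.19, CSPG4 0.19, ANPEP 0.23 and DCN 0.34. Single genes said above to have lost their call with normexp were no longer past the threshold.

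With quantile normalization the SP5 difference of effects, which rests on SK-N-BE(2) signals below background and is not read, became -1.69, SP5 FOXP1 10.75 and REC8 GFP 1.31 from the other cultures. The RGS5 difference of slopes became 0.29, the SP5 slope in CHP-212 FOXP1 1.40 and its difference 0.74. With the authors' value table these were -1.66 for SP5, 1.32 for REC8, and slopes of 0.27, 1.28 and 0.61. The cause was not tested. With arrays below background set to their floor, chosen after seeing the data, SP5 lay 9.01 (FOXP1) and 0.12 (GFP) from the other cultures, against 10.47 and 1.59 by measured signals. Against GFP cultures alone, RGS5 FOXP1 lay at 0.085 and REC8 GFP at 0.88.

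Probes called fell to 628 in CHP-212 and 6629 between the control cultures with probes well above background on all 8 arrays, since fewer probes are tested. CHP-212 at 24 and 72 h alone, chosen after seeing the data, gave 514. The test of the study's methods gave 650 for CHP-212 and, for SK-N-BE(2), 121 adjusted and 537 unadjusted. SK-N-BE(2) gave 477 with time points as blocks and 40 at 12, 24 and 72 h alone, and the difference of effects gave 2013 with blocks.

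Without 1 array, called probes ran from 620 (without CHP-212 GFP at 72 h) to 1073 in CHP-212. In SK-N-BE(2) they ran from 127 to 213, with 132, 138 and 145 without GFP at 0, 12 and 24 h, and 155, 127 and 153 without FOXP1 at 0, 12 and 72 h. RGS5 between the control cultures ran from -0.92 (without SK-N-BE(2) GFP at 72 h, adjusted p = 0.019) to -0.40. The RGS5 difference of effects ran from -0.66 to 0.048 (without CHP-212 FOXP1 at 24 h). The RGS5 difference of slopes in IMR-32 ran from -0.52 to 0.11 (without GFP at 0 h), and the SP5 slope in IMR-32 FOXP1 from -0.48 to 0.69 (without 72 h). The other IMR-32 slopes kept their sign without any 1 array, from 0.51 to 1.46 for SP5 in GFP, 0.63 to 1.26 and 0.61 to 0.78 for RGS5 in GFP and FOXP1, and 0.13 to 0.24 and 1.02 to 3.09 for REC8. Their differences ran from -1.65 to -0.11 for SP5 and 0.84 to 2.90 for REC8. FOXP1 minus GFP ran from -0.97 to -0.57 for SP5, 0.18 to 0.89 for RGS5 and -0.81 to -0.45 for REC8 in CHP-212. For SK-N-BE(2) it ran from 0.53 to 1.00 for RGS5 and -0.64 to -0.15 for REC8, and the REC8 difference of effects from -0.49 to -0.0032.

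No other slope passed the threshold, and the sign of these changed without 1 array. In CHP-212 GFP, RGS5 ran from -3.22 to 0.36. In CHP-212 FOXP1, SP5 ran from -0.38 to 0.30, RGS5 from -2.55 to 1.29 and REC8 from -0.051 to 1.71. Their differences in CHP-212 ran from -2.44 to 3.95 for RGS5 and -2.69 to 1.00 for REC8. In SK-N-BE(2), RGS5 in FOXP1 ran from -1.20 to 0.35 and the REC8 difference from -1.05 to 0.72. SP5 signals were near background in 5 of the 6 cultures, which limits the precision of its small differences.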
